A study of Mus musculus with 47 samples.

Results

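The 9 genes described here are transcribed by mature oligodendrocytes, the cells that wrap axons in myelin. They are Mbp, Mog, Mag, Mobp, Cnp, Mal, Opalin, Ugt8a and Cldn11, matched by symbol in GENCODE M21 to the Ensembl identifiers of the deposited tables, and all 9 of 9 were found among the 54281 genes with TPM, a level scaled for gene length and depth, and the 54532 genes with counts. The rule that lists them uses symbols and no measured value. They were measured by bulk RNA sequencing of cortex from 47 male C57BL/6J mice of about 3 months, 1 library per mouse. Control mice (n = 23) received control chow and the others (n = 24) chow with 1200 ppm PLX5622 for 10 days. PLX5622 inhibits CSF1R, the receptor on whose signal the survival of microglia depends. All mice were wild type and shared cages of 4 under a 12:12 light/dark cycle, and both diets were harvested at Zeitgeber times (ZT) 2, 6, 10, 14, 18 and 22, where ZT0 is lights-on and ZT12 lights-off. Each of the 12 groups held 4 mice, apart from control mice at ZT14, with 3 libraries. Neither cages nor sequencing runs were given per library in the sources used here.

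Libraries held 16597987 to 27626161 counts on genes (median 18314954 for control and 21476967.5 for PLX5622 libraries), and mitochondrial transcripts took 6.46% to 10.0% of them. All 12 of 12 microglial genes fell with PLX5622 (limma, adjusted p under 0.05), and their summed level was 537 to 816 TPM in control and 23.2 to 125 TPM in PLX5622 mice, so no library went against its diet label. In bulk tissue, fewer oligodendrocytes and less RNA per oligodendrocyte cannot be told apart.

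On the GRCm38 build, GENCODE M21 places the protein-coding members at chr18:82475146-82585637 (Mbp, plus strand), chr17:37010743-37023398 (Mog, minus), chr7:30899176-30914873 (Mag, minus), chr9:120149707-120181484 (Mobp, plus), chr11:100574904-100591729 (Cnp, plus), chr2:127633226-127656695 (Mal, minus), chr19:41061710-41077113 (Opalin, minus), chr3:125865271-125938619 (Ugt8a, minus) and chr3:31149920-31164324 (Cldn11, plus). Values are per gene and sum over its transcripts, of which 16 are annotated for Mbp.

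As background, myelin is a stack of membrane that oligodendrocytes wind around axons, rich in galactolipids and in a small set of abundant proteins. Mbp encodes myelin basic protein, which draws the inner faces of the membrane together, and Mobp encodes a small basic protein of the same compact layers. The mRNAs of both are known to be carried out into the cell's processes and translated there. Mog and Mag encode immunoglobulin-like proteins, Mog on the outermost surface of the sheath and Mag on the membrane that faces the axon. Cnp encodes an enzyme-like protein that keeps cytoplasmic channels in the sheath open, Mal a proteolipid of myelin membrane rafts, and Cldn11 the claudin of the tight junctions between its wraps. Ugt8a encodes the enzyme that makes galactosylceramide, and Opalin a transmembrane glycoprotein of oligodendrocytes. SOX10 and MYRF are the transcription factors best known to drive this programme.

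Promoter windows of RefSeq on GRCm38.p6, 250 bases before to 50 after a start, matched 8 of the 9 members (10 windows) and not Mbp. They were searched on both strands for ACAAAG (a SOX family core), CTGGCAC (a MYRF motif) and CAGCTG (an E-box), none of whose matches overlapped another in these windows. ACAAAG was found for 4 of 8 members, Cnp, Mag, Mobp and Opalin (5 of 10 windows, against 18.7% of all 32851 windows). CTGGCAC was found for Cnp, Mag and Opalin (4 of 10 windows, against 5.01%), and CAGCTG for Opalin (1 of 10 windows, against 16.3%). Overlapping windows of Mag held the same matches. The 250 bases before the start are shown for 5 members from the sets that moved apart between mice, with matches in capitals, CTTTGT being ACAAAG on the other strand:
Mobp (chr9:120149492-120149741, plus strand): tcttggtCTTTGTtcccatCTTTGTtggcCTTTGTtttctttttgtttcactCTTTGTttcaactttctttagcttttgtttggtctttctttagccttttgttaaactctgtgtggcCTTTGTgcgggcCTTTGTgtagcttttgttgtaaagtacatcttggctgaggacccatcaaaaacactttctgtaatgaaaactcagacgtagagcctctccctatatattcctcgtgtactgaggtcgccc
Mag (chr7:30914864-30915113, minus strand): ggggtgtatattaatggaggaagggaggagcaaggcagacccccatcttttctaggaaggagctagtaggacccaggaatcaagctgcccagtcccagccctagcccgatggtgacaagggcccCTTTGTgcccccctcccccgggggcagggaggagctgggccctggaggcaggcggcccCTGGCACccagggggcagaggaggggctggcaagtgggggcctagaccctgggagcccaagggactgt
Cnp (chr11:100574689-100574938, plus strand): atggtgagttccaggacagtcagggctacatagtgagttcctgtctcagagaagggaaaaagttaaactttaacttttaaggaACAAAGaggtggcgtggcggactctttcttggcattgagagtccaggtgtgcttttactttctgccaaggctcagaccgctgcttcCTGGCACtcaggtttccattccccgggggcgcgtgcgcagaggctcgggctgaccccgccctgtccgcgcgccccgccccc
Opalin (chr19:41077114-41077363, minus strand): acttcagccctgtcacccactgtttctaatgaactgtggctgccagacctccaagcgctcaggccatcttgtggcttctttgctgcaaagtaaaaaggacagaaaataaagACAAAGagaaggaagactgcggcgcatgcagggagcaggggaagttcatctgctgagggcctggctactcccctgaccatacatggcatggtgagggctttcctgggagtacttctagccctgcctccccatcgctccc
Cldn11 (chr3:31149670-31149919, plus strand): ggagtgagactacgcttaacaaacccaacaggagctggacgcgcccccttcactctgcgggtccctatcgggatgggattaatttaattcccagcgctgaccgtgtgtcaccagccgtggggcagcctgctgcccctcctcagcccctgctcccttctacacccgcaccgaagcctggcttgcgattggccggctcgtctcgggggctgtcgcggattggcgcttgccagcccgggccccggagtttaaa

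Mobp held 6 matches to ACAAAG, the first bases of which lay between -243 and -120 from the start. Mag and Cnp each held 1 ACAAAG and 1 CTGGCAC, at -126 and -68 for Mag and at -167 and -81 for Cnp. Opalin held ACAAAG at -139 and, after the start, at 24, with CTGGCAC at 37. None of the 3 motifs was found in the windows of Cldn11, Mog, Mal or Ugt8a, which says only that these letters are not in these windows.

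Mbp was among the most abundant transcripts of the cortex, with 3806 ± 756 TPM (SD, n = 47), rank 28 of all genes. Mobp followed with 773 ± 168 TPM (rank 132) and Cnp with 213 ± 31.1 TPM. Mal (138 ± 23.3 TPM), Mag (135 ± 28.7 TPM) and Cldn11 (123 ± 23.2 TPM) lay close together, Mog had 58.3 ± 11.04 TPM, and Opalin (21.5 ± 5.47 TPM) and Ugt8a (20.6 ± 3.97 TPM) were lowest. This order of neighbours held in all 47 libraries apart from 3 pairs, whose means lay within 1 SD of each other. Mal exceeded Mag in 30 of 47 libraries, Mag exceeded Cldn11 in 38 and Opalin exceeded Ugt8a in 22. Summed, the 9 genes gave 3435 to 7299 TPM in control and 3766 to 7296 TPM in PLX5622 mice. Markers of newly formed oligodendrocytes (8 genes) summed to 34.4 to 55.2 TPM and those of precursors (8 genes) to 78.8 to 141 TPM over all libraries. Within the precursor sum, Ptprz1 alone had a mean of 51.2 TPM in control and 57.3 TPM in PLX5622 mice. The lowest count of any member was 283 reads (Opalin), for which counting error was 5.94%.

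**Figure D1:**
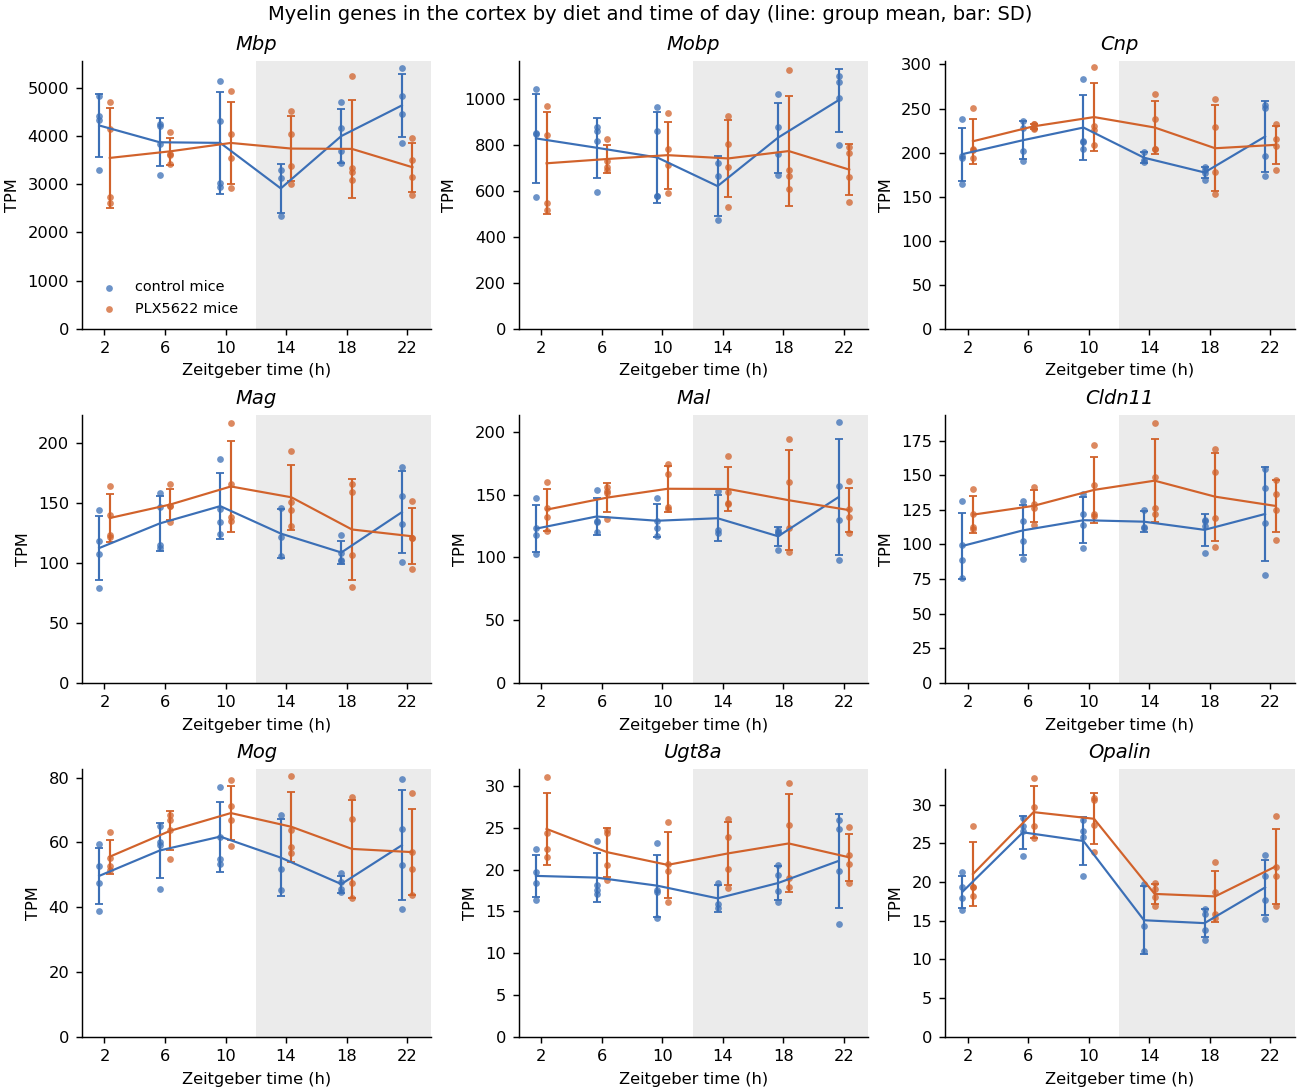
TPM of each of the 9 genes (y axes from 0) against Zeitgeber time in hours, with 1 point per mouse, lines through group means, SD as bars and the dark phase shaded. Opalin was highest at ZT6 and ZT10 and low at ZT14 and ZT18 in both diets, and Mobp was lower in every PLX5622 mouse than in every control mouse at ZT22.

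To ask whether the genes changed with the loss of microglia, the diets were compared over all Zeitgeber times with limma on log2(TPM + 1). Ugt8a and Cldn11 were higher in PLX5622 mice, each by 0.24 on the log2 scale, while Mbp and Mobp were the only members whose estimates were negative. These 2 of 9 calls stand against 3.45% of all 14580 genes called in either direction and 0.871% called higher. The median log2 difference was 0.16 over the members and 0.03 over all genes tested, and 7 of 9 members had a positive estimate against 64.8% of all genes. Ugt8a and Cldn11 deviated together between mice (r = 0.87), as other members did, so these calls and signs are not independent observations.

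Ugt8a, which makes galactosylceramide, spanned 13.5 to 26.0 TPM (median 18.1) across control mice and 16.1 to 31.1 TPM (median 21.6) across PLX5622 mice. Ranges overlapped, with 21 of 24 PLX5622 libraries above the control median and 3 above every control library. The log2 difference was 0.24 (SE 0.066, adjusted p = 0.0286, limma), with a 95% interval of 0.11 to 0.37. It held with each of the 47 libraries left out in turn (adjusted p up to 0.0497).

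Cldn11, the tight-junction claudin, spanned 75.9 to 154 TPM (median 114) across control mice and 98.5 to 188 TPM (median 126) across PLX5622 mice. Here, 20 of 24 PLX5622 libraries lay above the control median and 3 above every control library. The log2 difference was 0.24 (SE 0.069, adjusted p = 0.0376, limma), with a 95% interval of 0.10 to 0.38. This call was near the threshold and was lost in 18 of 47 leave-one-out fits, in which the log2 difference stayed between 0.22 and 0.24 and the adjusted p rose to at most 0.0663. Among control mice these were replicates 1, 2 and 3 at ZT2 (adjusted p = 0.0643, 0.0586 and 0.0515 without each), 1 and 2 at ZT6 (0.0610 and 0.0519), and replicate 1 at ZT10 (0.0607), ZT14 (0.0520), ZT18 (0.0646) and ZT22 (0.0663). Among PLX5622 mice they were replicate 2 at ZT2 (0.0575), 3 at ZT6 (0.0576), 1 and 3 at ZT10 (0.0604 and 0.0515), 4 at ZT14 (0.0593), 1 and 4 at ZT18 (0.0615 and 0.0556), and 3 and 4 at ZT22 (0.0604 and 0.0536). Without a filter on low levels the adjusted p was 0.0550.

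The other members did not pass the test. Opalin (median 19.8 TPM in control and 21.4 TPM in PLX5622 mice) had a log2 difference of 0.19 (adjusted p = 0.157), and Mal (123 and 143 TPM) one of 0.17 (adjusted p = 0.143). Mal was called without control ZT22 replicate 3 (adjusted p = 0.0220) and was above the control median in 21 of 24 PLX5622 libraries. Mog (53.2 and 61.0 TPM) had a difference of 0.16 (adjusted p = 0.261), Mag (123 and 142 TPM) of 0.15 (adjusted p = 0.371) and Cnp (196 and 226 TPM) of 0.10 (adjusted p = 0.354). For all 5 the ranges of the diets overlapped.

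Mbp, the most abundant member, spanned 2335 to 5409 TPM (median 4175) across control mice and 2604 to 5250 TPM (median 3528) across PLX5622 mice. Mobp spanned 475 to 1103 TPM (median 848) across control and 519 to 1129 TPM (median 708) across PLX5622 mice. The ranges overlapped almost wholly, although for each gene 4 of 24 PLX5622 libraries lay above the control median. Neither passed the test, with a log2 difference of -0.11 (95% interval -0.28 to 0.06, adjusted p = 0.527) for Mbp and of -0.12 (95% interval -0.31 to 0.06, adjusted p = 0.507) for Mobp.

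**Figure D2:**
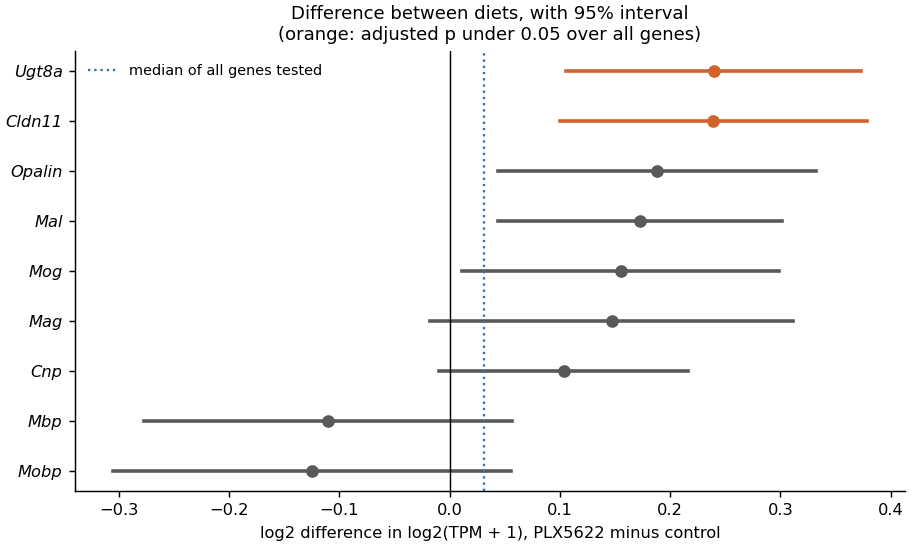
Difference in log2(TPM + 1) between PLX5622 and control mice for each gene (x axis, limma estimate over 47 mice, with its 95% interval), with the median of all genes tested as a dotted line. The intervals of Ugt8a and Cldn11 (orange, adjusted p under 0.05) lie above 0.10, and those of Mbp and Mobp run from -0.28 and -0.31 to 0.06.

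Because the TPM of both kinds of gene come from the same libraries, their ratio within a mouse was also taken. The TPM of Mobp over that of Cldn11 spanned 4.22 to 13.0 (median 7.07) across control and 3.58 to 7.69 (median 5.40) across PLX5622 mice. For Mbp over Cldn11 the medians were 33.3 and 27.0. The ratio of Mobp to Mbp, in contrast, was 0.203 in control (0.174 to 0.247) and 0.202 in PLX5622 mice (0.177 to 0.218). Mobp and Mbp had negative diet estimates and Cldn11 a positive one. The lower ratios to Cldn11 in PLX5622 mice therefore repeat these estimates and are no separate support for them. These ratios are descriptions without a test.

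At single Zeitgeber times 0 of 54 comparisons of a member between diets passed the test (limma), and edgeR and DESeq2 on the counts called 0 as well. Of all genes 1.29%, 1.01%, 1.07%, 0.905%, 0.809% and 1.3% were called at the 6 times in order from ZT2 to ZT22. The mice of the diets did not overlap in 2 of the 54 comparisons, against 4.55% of all comparisons of a gene at a time. At ZT22, Mobp was at 1004, 1077, 1103 and 799.8 TPM in control mice and at 660, 794, 767 and 552 TPM in PLX5622 mice. The groups did not overlap, and the log2 difference was -0.53 (SE 0.22, adjusted p = 0.471, limma). Such a gap below the control group was seen in 3.78% of all genes at ZT22. Mbp at that time was at 4837, 5409, 4464 and 3853 TPM in control mice and at 3163, 3973, 3512 and 2774 TPM in PLX5622 mice, with 1 PLX5622 mouse above the lowest control mouse and a log2 difference of -0.47 (SE 0.19, adjusted p = 0.471).

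Cnp was the other member without overlap, at ZT14, with 189, 201.1 and 192 TPM in 3 control mice and 204, 205, 238 and 267 TPM in 4 PLX5622 mice. Its log2 difference there was 0.22 (SE 0.15, adjusted p = 1, limma), and 3.17% of all genes lay above the control group in this way at ZT14. At ZT10 and ZT14 the estimate was positive for 9 of 9 members (63.9% and 60.8% of all genes), at ZT22 for 3 of 9 (48.1%). Members that deviate together between mice do not give independent signs here either. A difference in rhythm between diets, tested as the interaction of diet with the cosine and sine of ZT, was called for 0 members and for 0 of 14580 genes by limma, edgeR and DESeq2. The unadjusted p was under 0.05 for Mbp alone (adjusted p = 1), against 4.59% of all genes.

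Over the day, Opalin was the only member called as different between Zeitgeber times in the main fit, and it was called in both diets. The F test of limma between times called 1 of 9 members in control (1.18% of all genes) and 1 of 9 in PLX5622 mice (2.35%), and 0.638% of all genes were called in both. In control mice Opalin was at 16.4, 17.9, 19.3 and 21.3 TPM at ZT2, at 23.4, 27.3, 28.3 and 26.7 TPM at ZT6, and at 20.9, 28.0, 26.6 and 25.8 TPM at ZT10. It then was at 14.3, 19.8 and 11.1 TPM at ZT14, at 15.9, 13.9, 12.5 and 16.5 TPM at ZT18, and at 17.7, 20.8, 23.47 and 15.2 TPM at ZT22. Every control mouse at ZT6 and ZT10 was thus above every one at ZT14 and ZT18, times set side by side after their values were seen (adjusted p = 0.00140 between times, rank 35 of all genes).

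In PLX5622 mice Opalin was at 19.3, 27.3, 18.2 and 19.4 TPM at ZT2, at 27.2, 29.8, 33.5 and 25.7 TPM at ZT6, and at 27.4, 30.6, 30.9 and 23.8 TPM at ZT10. It was at 18.03, 19.2, 16.9 and 19.8 TPM at ZT14, at 22.6, 15.8, 18.8 and 15.4 TPM at ZT18, and at 16.9, 21.9, 28.5 and 20.8 TPM at ZT22. Again no mouse at ZT6 or ZT10 was as low as any at ZT14 or ZT18 (adjusted p = 0.0120 between times, rank 115). A 24-h cosine gave an amplitude, from the mean to the peak, of 0.38 on the log2 scale (SE 0.073) with a peak at ZT6.32 in control mice, and of 0.31 (SE 0.072) with a peak at ZT6.69 in PLX5622 mice. The difference between these rhythms had an adjusted p of 1 (limma). Both calls held in each leave-one-out fit, with an adjusted p of 2.93e-04 to 0.00551 in control and 0.00559 to 0.0311 in PLX5622 mice.

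JTK_CYCLE, a rank test for cycling genes and the one named by the study, did not call Opalin (adjusted p = 0.0833 in control and 0.137 in PLX5622 mice). It called 0 of 9 members in either diet, and 0.0754% and 0.61% of all genes. The F test of the cosine and sine (limma) called Opalin alone in both, with an adjusted p of 0.00882 in control mice (0.604% of all genes) and of 0.0369 in PLX5622 mice (1.45%). Opalin had an unadjusted p under 0.05 in both diets by JTK_CYCLE and no other member had one in either (8.53% and 11.1% of all genes). By the F test of cosine and sine (limma), Mbp and Mobp had an unadjusted p of 0.0268 and 0.0353 in control mice (adjusted p = 0.342 and 0.376). Mag had one of 0.0416 in PLX5622 mice (adjusted p = 0.354, same test). Among 32 other mature oligodendrocyte genes, Pllp, which encodes the myelin membrane protein plasmolipin, also differed between times in both diets (adjusted p = 0.0473 and 0.0417, F test of limma), with a cosine peak at ZT7.19 and ZT7.24. Of 10 transcription factors of the lineage and 8 genes of newly formed oligodendrocytes, 1 each was called, in PLX5622 mice only: Sox8 (adjusted p = 0.00489 and 0.0968 in control mice) and Gpr17 (0.0218 and 0.189). The interaction test called neither.

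Covariation between mice was measured on the deviation of each mouse from the mean of its diet and time, over 47 mice and 36 pairs of members, with 100000 permutations within groups. Pearson's r had a median of 0.60 and a range of 0.019 to 0.97, Spearman's rho a median of 0.58 and a range of -0.020 to 0.96, and 24 of 36 pairs had an adjusted p under 0.05. The members fell into sets that are described here after their values were seen. Mbp and Mobp deviated almost as one gene, with r = 0.97 (rho 0.96, adjusted p = 2.25e-05 by permutation, from the smallest p that the permutations can give) and r = 0.96 without the 2 mice farthest from the median.

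Mog, Mag, Cnp, Mal, Ugt8a and Cldn11 made up the other tight set, with r = 0.84 to 0.93 in all 15 pairs (rho 0.78 to 0.93, adjusted p = 2.25e-05 by permutation) and 0.81 to 0.92 without the 2 farthest mice. The closest pair was Mag and Cldn11 (r = 0.93). Between the sets, the 12 pairs of Mbp or Mobp with these 6 genes had r = 0.019 to 0.33 (rho -0.020 to 0.27), and none passed the permutation test (adjusted p = 0.107 to 0.909). Mbp with Cldn11 had r = 0.030, and Mobp with Cldn11 had r = 0.019. Within control mice these 12 pairs had r = -0.24 to 0.18 and within PLX5622 mice 0.28 to 0.54, a difference that was not tested. Opalin lay between, with r = 0.48 to 0.65 to the 6 genes (adjusted p up to 0.00524 by permutation), 0.40 to Mobp and 0.36 to Mbp. The pairs of Opalin with Mobp and Mbp did not pass by rho (adjusted p = 0.0504 and 0.0988 by permutation). Within control mice their r was 0.19 and 0.13, and within PLX5622 mice 0.58 and 0.56. With the 6 genes, Opalin had r = 0.43 to 0.69 in control and 0.53 to 0.64 in PLX5622 mice.

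**Figure D3:**
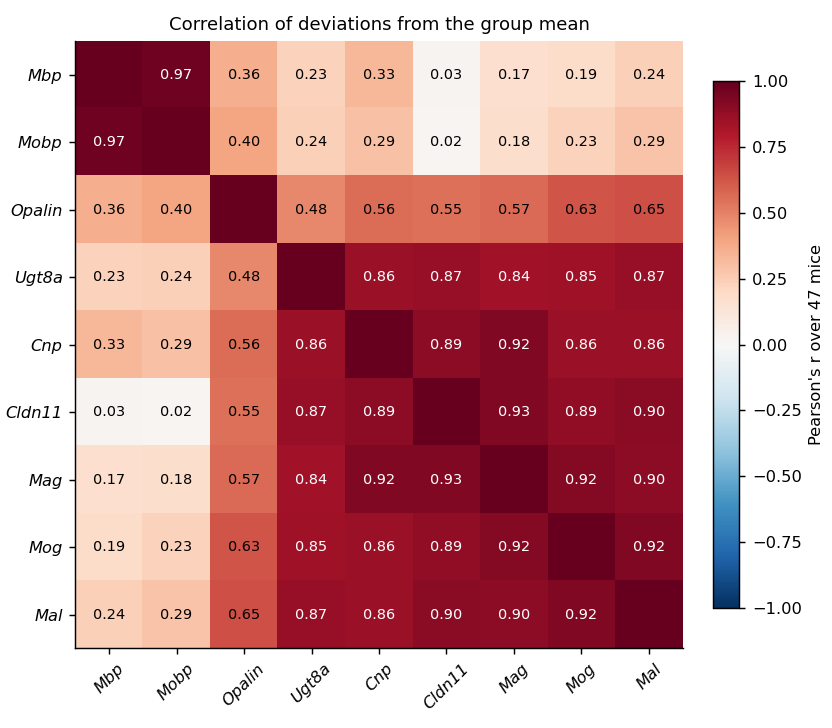
Pearson's r between the 9 genes over the deviations of 47 mice from the mean of their diet and time (colour, -1 to 1, with the value printed). Mbp and Mobp (0.97) form one block and Mog, Mag, Cnp, Mal, Ugt8a and Cldn11 (0.84 to 0.93) another, with Opalin between them.

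In log2 CPM with TMM factors, Mbp and Mobp had r = 0.98 and the 15 pairs of the 6 genes 0.75 (Cnp and Ugt8a) to 0.90 (Mag and Cldn11), while the 12 pairs between these sets had -0.0060 (Mbp and Cldn11) to 0.44 (Mbp and Cnp). On that scale Opalin had r = 0.58 with Mobp and 0.52 with Mbp, within its range of 0.37 (Ugt8a) to 0.61 (Mal) with the 6 genes. The deviations in TPM and in counts correlated at 0.87 to 0.95 for each gene. The first 3 principal components of the 9 deviations held 66.8%, 21.4% and 6.17% of their variance. Against all genes, the spread between mice was high for Mobp (percentile 83.4 of the residual SD), Mag (78.7) and Mbp (77.0), and was lowest for Cnp (43.9), with a median percentile of 70.5 over the members. Their highest library was 1.94 to 3.01 times the lowest.

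**Figure D4:**
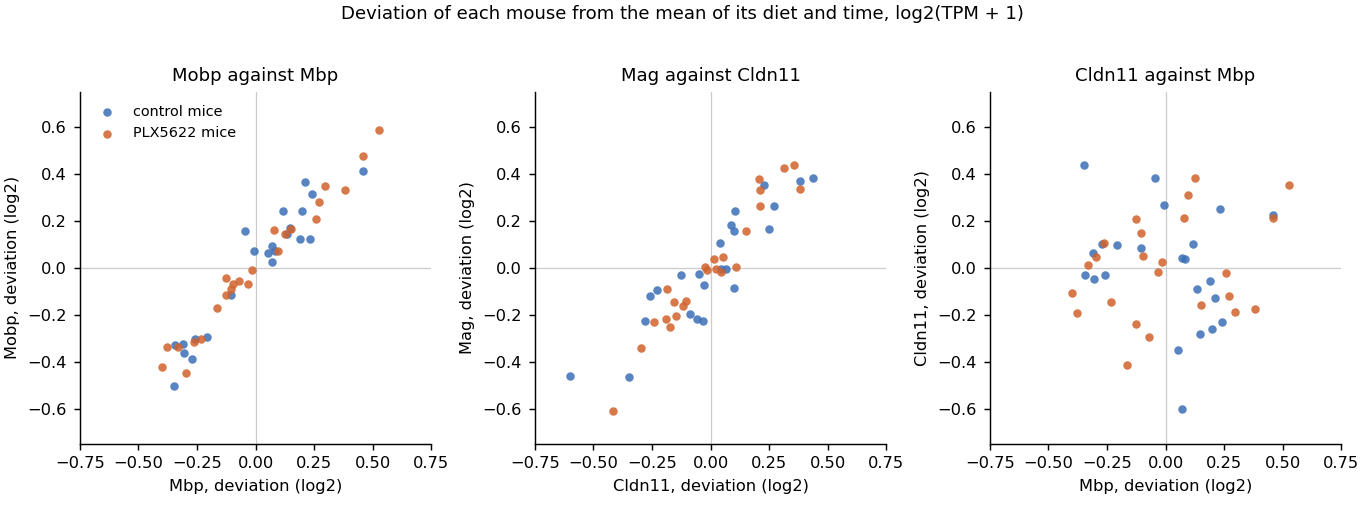
Deviation of each mouse in log2(TPM + 1) from its group mean, for Mobp against Mbp, Mag against Cldn11 and Cldn11 against Mbp (1 point per mouse, both axes log2). Points of both diets lie along a line in the first panels (r = 0.97 and 0.93). In the last panel r was 0.030 over all mice, -0.24 in control and 0.29 in PLX5622 mice.

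The mean standardised deviation of the 9 members was compared with every other gene above 1 TPM (14560 genes, median r 0.24), as a description. Among the 10 genes most like it were Tmem88b (r = 0.93), Sept4 (0.92), Ermn (0.91), Gjb1 (0.89), which encodes the gap-junction protein connexin 32, Klhl4 (0.89), Galnt6 (0.88), Fa2h (0.88), which hydroxylates the fatty acids of galactolipids, Plekhh1 (0.87) and Trf (0.87), which encodes transferrin. Tmem88b, Ermn, Gjb1 and Trf were on the list of other mature oligodendrocyte genes.

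Each set had its own neighbours. The mean of Mbp and Mobp was most like Bcas1 (r = 0.99), Plekhb1 (0.94) and Prr18 (0.93), followed by Kif1c, Oxsr1, S100b, Nde1, Kif5b, Tprkb and Phkg1 (0.83 to 0.87). Among the genes most like the mean of the other 6 were Fa2h (0.94), Tmem88b (0.93), Trf, Ttyh2, Tspan2, Gjb1, S1pr5, Gpr37 (0.91) and Myrf (0.89), the transcription factor. Opalin was most like Aspa (0.74), which encodes the enzyme that splits N-acetylaspartate. In the diet comparison, Bcas1 (-0.16, adjusted p = 0.343), Plekhb1 (-0.12, adjusted p = 0.401) and Prr18 (-0.12, adjusted p = 0.441) had negative log2 differences as Mbp and Mobp did. Of the other 7 genes most like Mbp and Mobp, 3 had negative and 4 positive estimates (-0.058 for Kif1c to 0.11 for Tprkb), and 0 of these 10 genes passed the test (limma). All 10 were picked for deviating with Mbp and Mobp in the same libraries, so their signs are no separate support.

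Other measures of the libraries were set beside these sets, given as r over 47 deviations without a test. Other mature oligodendrocyte genes had r = 0.47 with Mbp and Mobp and 0.93 with the 6 genes, and transcription factors of the lineage 0.44 and 0.81. Genes of newly formed oligodendrocytes had 0.015 and 0.63, and those of precursors -0.11 and 0.59. The mean deviation of 10 neuronal genes had r = -0.56 (rho -0.56) with Mbp and Mobp and 0.55 (rho 0.56) with the 6 genes, and 7 genes of deep cortical layers -0.51 and 0.42. Astrocyte genes had 0.55 and 0.17, and the mitochondrial share of counts 0.28 and -0.65. Genes listed for galactolipid synthesis and breakdown had -0.16 and 0.88, and microglial genes -0.040 and 0.040. Total counts had -0.14 and -0.12. The part of neuronal, astrocytic and mitochondrial content in the covariation was not tested.

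The other gene lists give the surroundings of the diet comparison (limma). Among 32 other mature oligodendrocyte genes 2 rose and 0 fell, Enpp2 (0.33, adjusted p = 0.0201), which encodes autotaxin, and the tetraspanin Tspan2 (0.25, adjusted p = 0.0251), and Aspa had 0.21 (adjusted p = 0.106). Of 13 genes listed for galactolipid synthesis and breakdown, not all of them particular to galactolipids, Elovl7, a fatty acid elongase, rose by 0.22 (adjusted p = 0.00328). Sptlc2 had 0.24 (adjusted p = 0.169), Ugcg 0.18 (adjusted p = 0.292), and all 13 had positive estimates against 64.8% of all genes. Of 10 transcription factors, 8 genes of newly formed oligodendrocytes and 8 of precursors 0 were called (1, 0 and 2 at an unadjusted p under 0.05), with the largest differences for Olig1 (-0.14, adjusted p = 0.163), Bmp4 (0.15, adjusted p = 0.437) and Sox6 (-0.17, adjusted p = 0.476). On the counts, edgeR and DESeq2 called Ugt8a and Cldn11 among the members, Elovl7, Olig1, which was lower, Enpp6 and 0 precursor genes. They also called 5 genes on the list of other mature oligodendrocyte and myelin genes. Among these, Enpp2, Tspan2 and Gsn were higher in PLX5622 mice and Cntnap1 was lower. DESeq2 also called Sptlc1, a subunit of serine palmitoyltransferase on the galactolipid list.

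Of the lists for other cells and regions, 0 of 10 neuronal, 0 of 8 striatal, 0 of 7 deep-layer, 0 of 8 upper-layer and 0 of 8 endothelial genes were called (1, 0, 0, 1 and 1 at an unadjusted p under 0.05), against 1, 0, 0, 1 and 0 with edgeR and 1, 0, 0, 2 and 0 with DESeq2. In astrocytes 1 of 8 rose, Gfap (0.56, adjusted p = 5.49e-06). Of 7 choroid plexus genes tested 4 rose, Ttr (0.80, adjusted p = 0.0452), Kcne2 (0.46, adjusted p = 0.0475), Kl (0.40, adjusted p = 0.0480) and Enpp2, which is on that list too, of which edgeR and DESeq2 called Enpp2 alone. The list summed to 157 to 1364 TPM in control and 250 to 1466 TPM in PLX5622 mice. Striatal genes summed to 234 to 1193 TPM and 333 to 1046 TPM. Choroid plexus and striatal genes had r = 0.34 and -0.15 with Mbp and Mobp and 0.14 and -0.091 with the 6 genes, and their part in the diet differences of Ugt8a and Cldn11 was not tested.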

How the data were processed

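Cortical RNA from 47 mice was sequenced by the study as paired-end reads, 1 library per mouse. The authors aligned them with STAR (GRCm38.p6), kept alignments on the primary chromosomes, and deposited TPM values computed with Salmon and the Gencode annotation, so that each library sums to the same total. A further table named for FPKM holds whole numbers, and these deposited counts were used as counts without normalization; the submitters' processing notes name STAR, featureCounts, edgeR, limma and mm10. Of the TPM and count genes, 99.7% and 99.8% were found in GENCODE M21. The model with sequencing metrics described in the paper was not used here.

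Tests used limma 3.58.1 (R 4.3.3) on log2(TPM + 1) for the 14580 genes that averaged 1 TPM or more over all libraries. Diet was tested with the cosine and sine of ZT (24 h) as covariates, rhythm by their interaction with diet, and times by an F test in a fit of 12 groups; p-values were adjusted over all genes tested (Benjamini-Hochberg, threshold 0.05). Fold changes on this scale understate those of low genes. JTK_CYCLE was written for this purpose with an exact null and 6 phases. Correlations used deviations from group means, two-sided permutations within groups and adjustment over 36 pairs. The fits were tested on simulated data. Within groups, libraries differed by at least 4.56 in chi-square per degree of freedom (69 pairs), so none was a copy. Alternatives were edgeR 4.0.16 and DESeq2 1.42.0 on the counts, other filters, pseudocounts and scalings, the replicate number as a block, covariates for library quality, a trend in eBayes, ZT as a factor, and each library left out.

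All 9 members are reported. From each other list the called genes and up to 3 of largest difference were named, and the genes among the 10 most like the members; values of 1 gene that these rules name are not reported here. The members, lists and tests were chosen with earlier results of these data known. The lists cover other mature oligodendrocyte and myelin genes (named above as other mature oligodendrocyte genes), galactolipid synthesis and breakdown, transcription factors, newly formed oligodendrocytes, precursors, neurons, astrocytes, microglia, choroid plexus, striatum, deep and upper cortical layers and endothelium. Whether each listed gene is particular to its cell type or pathway was not tested. Figures were drawn with matplotlib 3.10.9.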

Additional observations from a re-analysis of the deposited data

Results flagged for a closer look

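Of 99 groups of 4 mice (9 genes in 11 groups), 6 held a mouse far from the other 3, the gap to the nearest exceeding Dixon's 95% critical value, where chance gives about 1 in 20, or 4.95. Mbp was at 5250 TPM in PLX5622 ZT18 replicate 1 against 3099 to 3345 TPM in the others, and in the same mouse Mobp was at 1129 TPM against 607 to 693 TPM. Cnp was at 284 TPM in control ZT10 replicate 2 against 204 to 213 TPM. Mal was at 105 TPM in control ZT18 replicate 1, below 120 to 122 TPM in the others. Opalin was at 27.3 TPM in PLX5622 ZT2 replicate 2 against 18.2 to 19.4 TPM, and Ugt8a was at 23.4 TPM in control ZT6 replicate 3 against 17.1 to 18.1 TPM.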

How the results depend on the processing

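No diet difference of a member changed its sign under any alternative. With other filters, a trend in eBayes or 3 residual principal components the diet estimates stay the same by construction, so these could not change a sign. The 3 components were taken from the residuals of the same genes, so a lower residual spread, and with it part of the added calls, is built in. Of 295 values recomputed outside the leave-one-out fits, 255 kept their direction and their side of the threshold, or their count within 1.5 times. With 3 residual principal components the members called by diet rose from 2 to 5 (Ugt8a and Cldn11 with Mog, Mal and Opalin), with the mitochondrial share as a covariate they were 3 (Mal added, adjusted p = 0.0450, limma), and without a filter they fell to 1. With libraries left out 1 to 3 were called. The other mature oligodendrocyte genes called went from 2 to 5 with median-of-ratios scaling, edgeR, DESeq2 and the mitochondrial share, and to 13 with 3 components (2 to 4 with libraries left out, 4 without PLX5622 ZT10 replicate 2 or ZT18 replicate 2). Over all genes, diet called 503, against 298 above 5 TPM, 987 with the mitochondrial share, 1020 with edgeR, 1155 with DESeq2, 2558 with 3 components and 429 to 634 with libraries left out.

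Between times, 172 genes were called in control mice, against 350 with median-of-ratios scaling, 361 with the mitochondrial share, 565 with edgeR, 970 with DESeq2, 1023 with 3 components and 114 to 234 with libraries left out (114 without control ZT14 replicate 3). In PLX5622 mice 343 genes were called, against 718 with the mitochondrial share, 724 with edgeR, 1325 with DESeq2, 1407 with 3 components (then 2 members) and 162 to 543 with libraries left out (162 without ZT14 replicate 3, 543 without ZT18 replicate 4). By JTK_CYCLE, 11 and 89 genes cycled in control and PLX5622 mice, against 0 and 43 without a filter, 40 and 160 with median-of-ratios scaling, and 0 to 18 and 38 to 114 with libraries left out. The limma F test of cosine and sine called 88 and 212 genes and 1 member, Opalin, in each diet. The median r of the pairs was 0.56 to 0.67 and the median percentile of the spread 62.5 to 71.9 with libraries left out. Apart from the part that the 3 components build in, the cause of these changes was not tested.

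Replicate numbers were not taken to pair the mice, since the labels tie them to nothing shared. Libraries with the same number were nonetheless more alike. Their deviations correlated above 0.1 in 76 of 253 pairs, against 95 of 759 pairs with different numbers. The median was 0.055 (-0.25 to 0.30) for pairs with the same number and -0.019 for the others, and 24 of 47 libraries correlated best with their own number. What such libraries share was not tested, and the main tests and the permutations within groups treat the mice as independent. The replicate block moved the genes called between times to 449 in control and 557 in PLX5622 mice, and those called by JTK_CYCLE to 162 and 264, with 1 member, Opalin, in control mice (adjusted p = 0.0289 by JTK_CYCLE, and 0.0595 in PLX5622 mice). It changed no other call of a member.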
